A study of Mus musculus with 17 samples.

Results

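The regions described here are places inside genes where RNA polymerase II was detected in resting macrophages. Their midpoints lay away from both ends of every protein-coding gene. The regions were built by pooling the peak summits of 16 chromatin immunoprecipitation libraries and chaining summits at most 500 bp apart. A region was kept when its midpoint lay inside a protein-coding gene, more than 1 kb from every start or end of such a gene, and when at least 3 of the 4 untreated libraries had a summit in it. This left 5163 gene-body regions, called members below, of 47904 regions in all, in 2686 host genes. Only the midpoint was held more than 1 kb from gene starts and ends. A wide member can therefore reach a start or end, and its best summit can lie there. The rule used the untreated lists, so values in untreated libraries are given only as a description, and treated libraries are set against untreated ones without a test.

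The cells were mouse bone marrow-derived macrophages, either wild type (WT) or N4bp1 knockout (KO). They had no treatment or had received R837 (imiquimod), which activates the RNA-sensing receptor TLR7 in endosomes, for 2, 4 or 6 h. Each of the 8 groups held 2 libraries, and all were precipitated with an antibody against RNA polymerase II. N4BP1 is known to restrain the output of inflammatory cytokines, and the study's title places it with caspase-8 in the crosstalk of the IkB kinases. The labels give neither the strain and age of the mice nor the part of N4bp1 that was removed. Nor do they tell whether replicates came from different cultures or mice, and p-values then reflect no more than the spread among these libraries, which may be technical.

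As background, polymerase gathers at the start of most active genes, pauses a short way downstream, and then moves through the gene body as it makes the transcript. Signal within the body is therefore left by elongating polymerase, by polymerase at starts that lie inside the gene, or by polymerase at enhancers within introns. In macrophages, signalling through TLR7 activates NF-kB and interferon regulatory factors, which change which genes are transcribed.

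Each deposited file listed the 1 bp summits of 1 library, and lists held between 8394 and 29760 summits. Read depth is unknown, because the lists hold no read counts. The shortest list was replicate 2 of WT at 6 h and the longest was replicate 2 of KO at 6 h. Codes in the peak names formed 3 series, one for untreated and 2 h libraries, one for 4 h and one for 6 h, so the later times cannot be told apart from a series when they are set against 2 h. Comparisons of KO with WT stay inside 1 series. Replicate 2 of KO at 6 h also stood apart in its score values, of which at most 0.0874% were shared with any other list. All 10 macrophage markers examined had a summit in at least 3 untreated libraries, whereas none of the 6 markers of T and NK cells, 6 of B cells, 6 of neutrophils and 5 of mast cells and basophils did. Of the 6 markers each for dendritic, erythroid and stromal cells, 1 per list did. The targeted gene, N4bp1, held no member, since none of its gene-body regions had a summit in an untreated library. A region at one of its ends had a summit in 3 of 4 untreated and in all 12 treated lists, KO included, so these lists do not check the knockout, the removed part of the gene being unknown.

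The rule's limits cut through a continuous range. Sirpa, an inhibitory receptor of macrophages, was kept with ranks of 164, 173 and 117 and no summit in replicate 1 of untreated KO, whereas Fth1, ferritin heavy chain, was not kept with ranks of 5 and 3 and no summit in the other 2 untreated libraries. Of the members, 3536 were in all 4 untreated lists and 1627 in 3, and 2010 further gene-body regions were in 2. By distance, the member in Ctdsp1 lay 1002 bp from the nearest gene end, and the region in Rabggtb, at 1000 bp, was not kept.

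Many members lay at an annotated start inside their gene, and the sequences of some of these starts are shown first. Strand was known for the hosts of 4190 of the 5078 members that lay in a single gene. Of these 4190, 966 (23.1%) had their midpoint within 1 kb of an annotated internal start. Of the rest, 748 lay in the first 5 kb of the gene, 431 in the last 5 kb, and 2045 (48.8%) in the middle. No least distance between an internal start and the gene's own 5′ end was set, so some internal starts can lie close to that end. The following 150 bases end just before the internal start nearest to 6 members that kept a summit in all 12 R837-treated lists, and these are the internal-start members among the 8 that stood highest in those lists. Sequences are from RefSeq promoter windows (GRCm38.p6), written 5′ to 3′ on the gene's strand, with each CpG in capitals.
H3f3b (chr11:116024505-116024654, minus strand): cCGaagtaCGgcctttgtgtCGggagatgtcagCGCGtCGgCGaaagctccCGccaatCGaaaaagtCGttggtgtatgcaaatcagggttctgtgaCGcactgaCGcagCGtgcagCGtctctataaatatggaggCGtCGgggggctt
Zeb2 (chr2:45113280-45113429, minus strand): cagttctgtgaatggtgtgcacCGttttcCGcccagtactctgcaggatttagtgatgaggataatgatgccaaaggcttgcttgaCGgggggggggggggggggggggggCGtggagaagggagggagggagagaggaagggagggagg
Ldha (chr7:46845654-46845803, plus strand): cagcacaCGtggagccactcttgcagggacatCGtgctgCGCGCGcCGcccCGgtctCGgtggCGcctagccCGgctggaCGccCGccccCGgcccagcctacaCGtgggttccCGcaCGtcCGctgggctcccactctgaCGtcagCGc
Slc31a2 (chr4:62286279-62286428, plus strand): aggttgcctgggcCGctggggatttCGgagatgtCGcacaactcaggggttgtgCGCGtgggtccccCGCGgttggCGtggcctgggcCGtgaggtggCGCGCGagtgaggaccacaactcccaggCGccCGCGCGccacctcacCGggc
Pfkfb3 (chr2:11502091-11502240, minus strand): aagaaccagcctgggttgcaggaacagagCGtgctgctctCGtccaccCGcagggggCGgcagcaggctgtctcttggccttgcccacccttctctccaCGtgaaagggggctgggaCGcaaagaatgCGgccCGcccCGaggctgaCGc
Nfkb2 (chr19:46305545-46305694, plus strand): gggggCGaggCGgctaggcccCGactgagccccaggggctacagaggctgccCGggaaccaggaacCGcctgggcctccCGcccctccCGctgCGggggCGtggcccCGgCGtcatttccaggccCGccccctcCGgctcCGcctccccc

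The next 3 are the same stretch for the internal-start members among the 8 that stood highest in untreated lists and had no summit in any treated list.
Ctla2b (chr13:60897448-60897597, minus strand): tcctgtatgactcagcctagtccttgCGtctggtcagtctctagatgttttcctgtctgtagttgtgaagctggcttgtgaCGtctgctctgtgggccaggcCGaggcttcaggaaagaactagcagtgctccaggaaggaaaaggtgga
Folr2 (chr7:101845332-101845481, minus strand): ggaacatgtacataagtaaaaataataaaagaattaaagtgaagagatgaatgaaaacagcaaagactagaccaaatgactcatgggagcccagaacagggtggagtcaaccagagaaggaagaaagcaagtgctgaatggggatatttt
Serpinb6a (chr13:33936084-33936233, minus strand): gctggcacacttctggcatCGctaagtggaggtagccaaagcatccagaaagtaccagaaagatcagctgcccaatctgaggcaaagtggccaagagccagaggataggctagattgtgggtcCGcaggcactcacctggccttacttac

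The 6 retained starts carried between 4 and 19 CpG in 150 bases, with Zeb2 the lowest, and the 3 starts without a treated summit carried 3, 0 and 2. These few sequences were chosen for their lists and did not stand for the whole class. Over 300-base windows (250 before to 50 after the start), the median was 22 CpG for 267 starts whose member was in 10 or more treated lists and 19 for 219 starts whose member was in 2 or fewer. All 933 starts at members had a median of 21 CpG and 61.7% GC, against 16 CpG and 58.7% GC for 10680 internal starts of protein-coding genes, and 7 CpG and 52.7% GC for all 32851 windows. The core of the ETS motif bound by PU.1, AGGAAGT on either strand, was in 9.75% of the 933 windows, 8.48% of internal starts and 9.35% of all windows. It was in 13.9% of the 267 windows whose member was in 10 or more treated lists and in 8.22% of the 219 in 2 or fewer, a difference that was not tested. The AP-1 motif TGANTCA, searched on both strands, was in 6.11%, 6.08% and 7.81% of the same sets. The windows of Ctla2b, Folr2 and Nfkb2 held an AP-1 match, and none of the other 6 printed genes held either motif.

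A member inside Mcm7, a subunit of the replicative helicase, covered the hairpins of Mir93 and Mir106b and lay within 500 bp of Mir25 (chr5:138165513-138165918). It is shown because these microRNAs are processed from the Mcm7 transcript. Their main mature sequences are given with the seed, bases 2 to 8, in capitals.
mmu-miR-93-5p: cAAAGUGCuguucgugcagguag
mmu-miR-106b-5p: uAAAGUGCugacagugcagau
mmu-miR-25-3p: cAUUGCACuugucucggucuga
The first 2 share a seed, and the third has its own. All 4 untreated libraries had a summit in this member. So did both KO libraries at 2 h and replicate 2 of KO at 6 h. The other treated KO libraries and the 6 treated WT libraries had none. Replicate 2 of KO at 6 h was the longest list (29760 summits). At 2 h, replicate 1 of KO was the longest list (13825) and replicate 2 of KO the shortest (9402). How often other regions showed this pattern was not counted, so it is a description and not a difference between genotypes. In all, 35 members lay within 500 bp of 36 annotated hairpins.

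The host genes were long genes, which the rule favours, since longer genes have more room over 1 kb from their ends. Their median length was 32985 bp, against 17169 bp for all 21887 protein-coding genes and 19750 bp for genes with a region at one of their ends. A region chained at a gene's own end was present for 57.5% of hosts and for 37.4% of all genes. Of the 2686 hosts, 1759 had 1 member, 185 had 5 or more, and 48 had 10 or more, which together held 771 members. Members had a median width of 554 bp (quartiles 260 and 1135 bp), and the widest spanned 14725 bp. Of the members, 85 lay in more than 1 gene, so that their host is uncertain.

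The 12 members that stood highest in resting cells lay in 12 genes of various functions, led by H3f3b and Actb. Strength is given as the rank of the region's best summit in a library, with 1 the highest score. Because ranks depend on list length, each list was first shortened to its 8394 best summits. H3f3b, which encodes the replacement histone H3.3, held ranks 5 and 4 in untreated WT and 1 and 5 in untreated KO libraries at chr11:116023887. It stayed between 16 and 37 in all 12 treated libraries, a narrow band that did not reach the untreated ranks. Actb, cytoskeletal actin, ranked 8, 6, 9 and 4 in untreated libraries but had a summit in only 7 treated lists, where its rank lay between 1 and 14. Both genes have near-identical copies elsewhere in the genome, and how the authors placed reads that match several sites is not given in the sources used here. Mcl1, an anti-apoptotic BCL2 family gene, ranked 92, 29, 41 and 57, and Zfp36l2, an mRNA decay factor, ranked 28, 59, 75 and 55. Tnrc18, Slc43a2, Cirbp, Sgk1, Dgkz, Zeb2, H2-K1 and Aldoa completed the first 12, and 10 of the 12 had a mean rank score below 8 on a scale that ends at 13.04. Slc43a2 encodes an amino acid transporter, Cirbp a cold-inducible RNA-binding protein, Zeb2 a transcription factor of macrophage identity and Aldoa a glycolytic enzyme.

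Among the genes with most members, most members were missing from treated lists. Lrp1 was the exception, in replicate 2 of WT at 4 h and in both WT libraries and replicate 2 of KO at 6 h. Osbpl8, an oxysterol-binding protein family gene, had 65 members spread from 1.98 to 131 kb from its 5′ end in a gene of 133 kb. Of these 65, 60 and 47 had a summit in the untreated WT libraries and 62 and 62 in the untreated KO libraries. No library at 2 or 6 h had a summit in any of them, and the 4 libraries at 4 h had 2, 2, 1 and 4, so that 59 were in no treated list. Zmiz1, a transcriptional coregulator, had 36 members, of which 29 to 35 were in each untreated library and 0 to 10 in each treated one. Aopep, an aminopeptidase gene, had 35, of which 30 to 34 and 1 to 6 were found. Slc6a6, the taurine transporter, had 31, of which 26 to 31 were in untreated libraries, 0 to 5 in 11 treated libraries and 14 in replicate 2 of KO at 6 h, the longest list.

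Lrp1, the LDL receptor-related endocytic receptor, had no member in any list at 2 h and members in every list at 4 and 6 h. Its 31 members had 27 to 30 summit-bearing regions in untreated libraries and 0 in all 4 libraries at 2 h. At 4 h they had 11 and 17 in WT and 5 and 5 in KO, and at 6 h 24 and 16 in WT and 8 and 25 in KO. The genotypes did not overlap at 4 h and overlapped at 6 h. How often other genes showed this is not given here, so it is a description and not a difference between genotypes. Of the 14 Lrp1 members that could be tested, 2 stood higher at 6 h than at 2 h, by the fit described below, against 3.78% of all regions. At 6 h 2 stood lower in KO than in WT, against 0.989% of all regions.

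**Figure D1:**
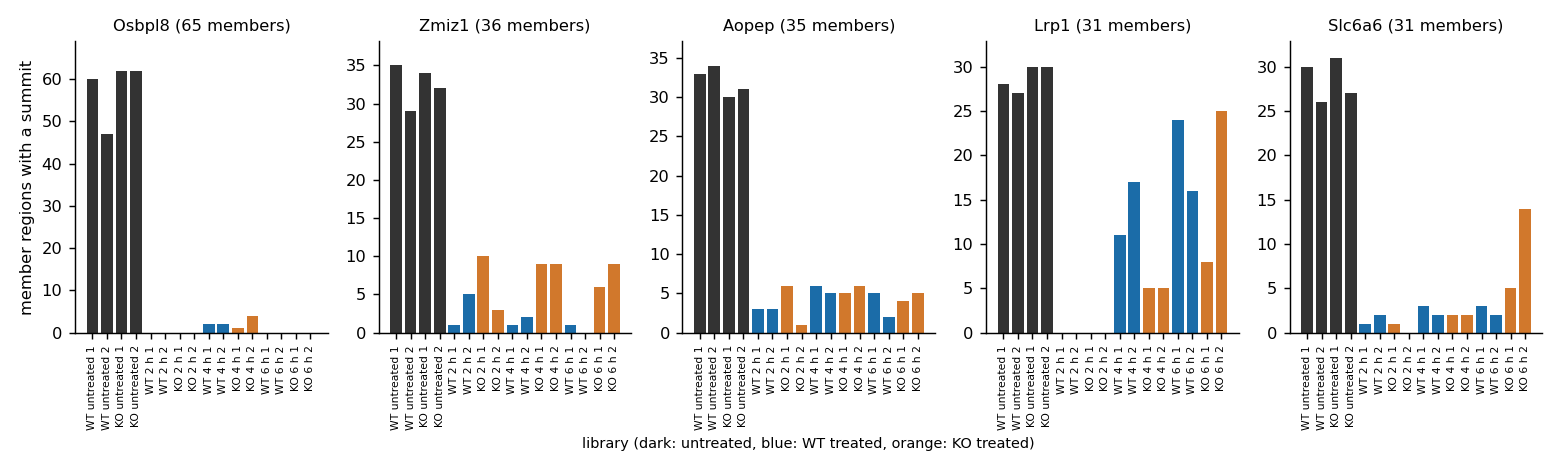
Number of member regions with a summit (vertical axis) in each of 16 libraries (horizontal axis) for the 5 genes with most members, with untreated libraries dark, WT treated blue and KO treated orange. Osbpl8 had 47 to 62 members in untreated libraries and at most 4 in treated ones, and Lrp1 had 0 at 2 h and 8 to 25 at 6 h.

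Over all members, 92.1% ± 3.28 (SD, n = 4) had a summit in an untreated library, which the rule fixes, and 38.5% ± 13.4 (SD, n = 12) in a treated one. The treated shares were 24.1% and 24.1% in WT and 32.1% and 20.8% in KO at 2 h. After 4 h the WT libraries had 38.3% and 48.0% and the KO libraries 52.2% and 51.6%. After 6 h these were 44.5% and 22% for WT and 47.0% and 57.5% for KO. No treated library reached the lowest untreated share of 89.1%. Treated lists were mostly shorter, and over the 12 treated libraries the share of members followed list length (Pearson r = 0.971, Spearman rho = 0.979, as a description). With lists shortened to 8394 summits, 38.2% ± 1.04 (SD, n = 4) of members had a summit in untreated and 23.9% ± 2.75 (SD, n = 12) in treated libraries, and the 2 sets of libraries did not overlap. Members were chosen by their untreated summits, so the rule favours the untreated share here too. By the same criterion, gene-end regions had 62.2% untreated and 37.1% treated, and regions outside genes 36.4% and 20.7%. Fewer polymerases in a gene body and a shift of the best summits to other places cannot be told apart in ranked lists.

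Individual members ran from complete loss to complete retention. Of the 5163 members, 1157 (22.4%) had a summit in none of the 12 treated lists and 439 (8.5%) in all 12. Gene-end regions chosen by the same untreated criterion, 7901 with a midpoint within 1 kb of a gene's start or end, had 559 (7.08%) in none and 965 (12.2%) in all. The 2339 regions outside genes chosen in the same way had 538 in none and 151 (6.46%) in all. Their mean share after R837 was 36.2% ± 15.5 (SD, n = 12), close to the 38.5% of members. Loss of this size was thus not particular to gene bodies, although members and regions outside genes were not compared by a test. The mean share after R837 was 53.8% ± 19.1 (SD, n = 12) for gene-end regions, and members were lower by 15.3 percentage points within libraries (two-sided exact sign-flip permutation test, n = 12, p = 0.000977, adjusted p = 0.00293 over 3 tests). With summits chained at up to 1000 bp the difference was -9.39 points. The share was lower in 11 of 12 libraries, with differences from -26.3 to 0.169 points, and the exception was replicate 2 of WT at 6 h. Members also stood lower in the untreated lists, where 38.2% of them and 62.2% of gene-end regions were among the best 8394 summits. When regions were first matched in 5 bins of their mean untreated rank score, the difference was -3.72 points (exact p = 0.0713, lower in 10 of 12 libraries), so the call was lost.

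**Figure D2:**
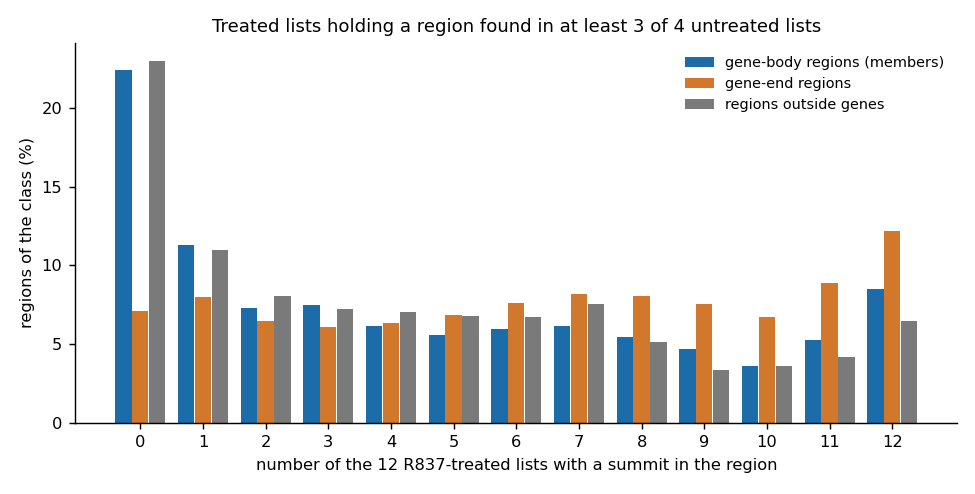
Share of regions (vertical axis, percent of each class) by the number of 12 treated lists with a summit in them (horizontal axis) for members, gene-end regions and regions outside genes, all found in at least 3 of 4 untreated lists. Members had 22.4% in no treated list, against 7.08% of gene-end regions. Regions outside genes lay close to members, with 538 of 2339 in no treated list.

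**Figure D3:**
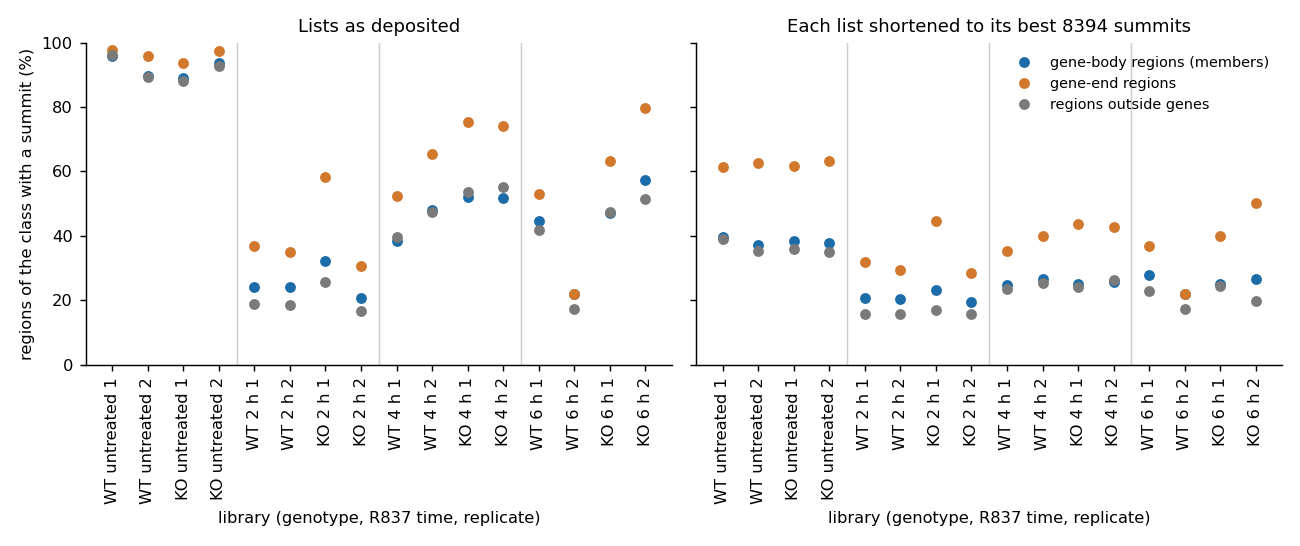
Share of each class of regions with a summit (vertical axis, percent) in each library (horizontal axis), with lists as deposited on the left and shortened to 8394 summits on the right. With shortened lists, members lie between 37.0% and 39.5% in untreated and between 19.4% and 27.9% in treated libraries. All classes were chosen by their untreated summits.

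The treated share differed with the place of a member in its gene, with position classes that were set after values were seen and are given as a description. After R837, a mean of 52.6% of internal-start members had a summit in a library, 46.1% of those in the first 5 kb, 36.4% in the last 5 kb and 30.1% in the middle. Of the 2045 members in the middle, 646 (31.6%) were in no treated list, against 74 (7.66%) of those at internal starts. Internal-start members had the higher share in 11 of 12 treated libraries, with differences from the other placed members of -0.397 to 30.7 points. They also stood higher in resting cells, where 62.1% were among the best 8394 summits. The values were 41.7%, 28.2% and 28.4% for the first 5 kb, the last 5 kb and the middle. Starts close to the gene's own 5′ end can be among the internal ones. Along the gene in 10 equal bins, the mean treated share was 45.8% in the bin at the 5′ end, which held 770 members, and 29.8% in the last, which held 306.

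**Figure D4:**
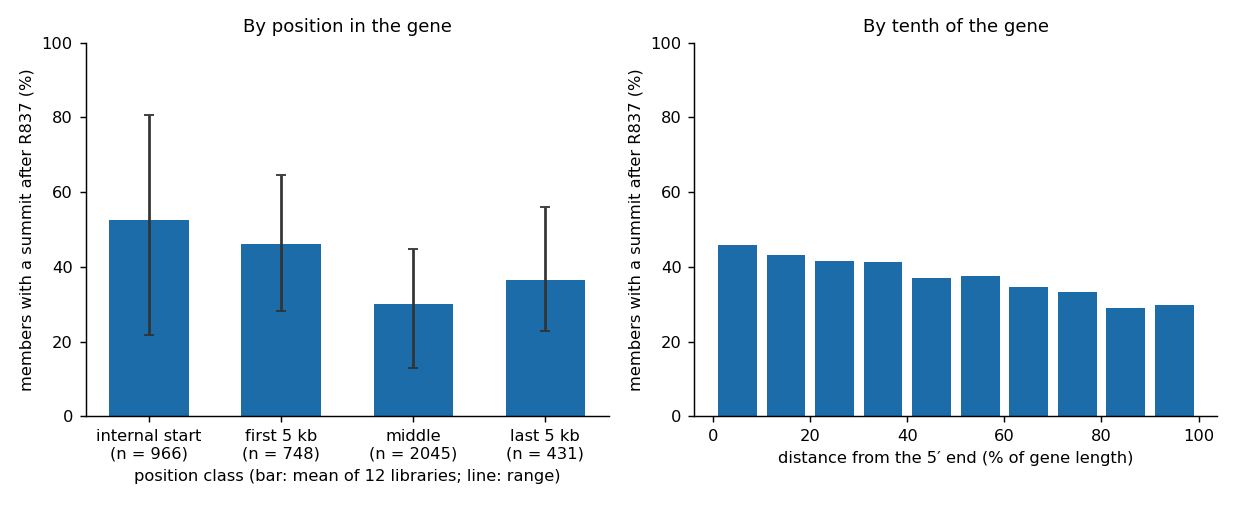
Mean share of members with a summit after R837 (vertical axes, percent) by position class (left, lines show the range over 12 libraries) and by bins of 10% of gene length from the 5′ end (right). Members at internal starts averaged 52.6% and those in the middle of genes 30.1%.

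The members that stood highest in treated lists, among those found in all 12, moved up from low or middle ranks in most cases. Lrrc25, a leucine-rich repeat protein of myeloid cells, ranked between 1866 and 2533 in untreated and between 25 and 108 in treated libraries at chr8:70617800, with no overlap. Marcks, a membrane-linked actin regulator, ranked between 1053 and 1729 untreated and between 29 and 368 treated. Nfkb2, which encodes the p100 precursor of NF-kB, ranked between 858 and 1371 untreated, 39 to 119 at 2 h, and 76 to 894 later. Pfkfb3, a regulator of glycolysis, was outside the best 8394 in replicate 1 of each untreated genotype and at 5275 and 6195 in the others, and ranked between 32 and 445 in all treated libraries. The copper transporter family gene Slc31a2 ranked between 47 and 348 when treated, and only 1 untreated library had it among the best 8394, at 7808. These members were chosen by their treated ranks, so their position is a description.

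The 8 members that stood highest in resting cells and had no treated summit were in Ctla2b, Dnmt3a, Arhgap19, Zfp36l1, Cerk, Folr2, Lcp1 and Serpinb6a. Dnmt3a, a de novo DNA methyltransferase, ranked 1306 and 987 in untreated WT and 1656 and 1372 in untreated KO libraries, in the middle of the gene 60.5 kb from its 5′ end. Folr2, a folate receptor of tissue macrophages, ranked 1677, 2762, 1589 and 1022 at an internal start. Zfp36l1, an mRNA decay factor, ranked 2509, 548, 1112 and 2803. Ctla2b has a close paralog, so its reads may be shared with another gene.

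The gene lists examined differed widely in retention. Macrophage identity genes held 49 members in 16 host genes, with Spi1, which encodes the lineage factor PU.1, holding 7, and a mean of 52.6% had a summit in a treated library, against 38.5% for all members. Genes of TLR signalling, of the IkB kinases and around caspase-8 held 23 members, of which Cflar, the caspase-8 inhibitor cFLIP, and Irak2, a kinase of the MyD88 complex, had 5 each, and their mean was 75.4%. The mean was 71.9% for 16 members of NF-kB response genes, 78.8% for 11 of translation genes, 65.8% for 19 of glycolysis genes and 55.6% for 12 of immediate early genes. Interferon-stimulated genes held 11 members with a mean of 68.2%, but 10 of them were in Rnf213, a large ubiquitin ligase. The lowest means were 26.2% for 56 members of lipid-handling genes, 24 of them in no treated list, and 29.5% for 68 members of lysosomal genes, 16 of them in none. Lipid-handling members were most numerous in Lipa, the lysosomal acid lipase, with 10, in Abca1, the cholesterol exporter, with 9, and in Plin2, a lipid droplet coat protein, with 8. Actin and adhesion genes held 108 members, 24 of them in Myo1f, at 40.5%. Lysosomal members were led by Ctss, cathepsin S, with 14, and by Atp6v1a, a proton pump subunit, with 10. Plin2 illustrates the pattern: its first member ranked 888, 865, 373 and 847 in untreated libraries, had no summit at 2 h, stood at 4375 and 5725 in WT at 4 h and at 6766 and 5672 at 6 h, and was absent from or outside the best 8394 in KO at 4 and 6 h. These lists were compared by description only and were not matched for untreated rank or position in the gene. Over all members, the mean treated share was 22.5% in the lowest of 5 bins of mean untreated rank score and 77.2% in the highest.

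Whether members were held more often in KO than in WT after R837 was asked next. The share was 43.5% ± 14.1 (SD, n = 6) in KO and 33.5% ± 11.5 (SD, n = 6) in WT, a difference of 10 points (two-sided exact permutation within times, p = 0.0463, adjusted p = 0.0694 over 3 tests, smallest possible p = 0.00926), so it did not pass after adjustment. Within the series of codes the difference was 2.33 points at 2 h, 8.78 at 4 h and 19.0 at 6 h. KO lists were longer at 4 and 6 h, and with lists shortened to the same length the difference was 0.455 points (exact p = 0.713). Without replicate 2 of WT at 6 h, the shortest list, it was 6.29 points (exact p = 0.102), and without replicate 2 of KO at 6 h 8.29 points (exact p = 0.176). The share was 17.5 points higher at 6 h than at 2 h over both genotypes, which did not pass (exact permutation within genotypes, p = 0.167, smallest possible p = 0.0556). With lists shortened to the same length the difference was 4.45 points (exact p = 0.0556, the smallest possible).

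Ranks of single members were then compared. The rank score is log2 of (8394 + 1) divided by the rank of the member's best summit, and 0 where no summit was in the shortened list, so it describes a place in the list and not an amount of polymerase. The fit covered 15767 regions that 2 or more of the 16 shortened lists contained, 3060 of them members, and used limma at an adjusted p of 0.05 (Benjamini-Hochberg over all 15767). Members that pass such a filter need not stand for the rest. Each change below is a difference in rank score ± its standard error (SE).

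Over the 3 treated times, 39 members were called between KO and WT, 13 higher and 26 lower in KO, which is 1.27% of those tested, against 1.72% of all regions (0.729% higher and 0.989% lower). The untreated libraries add to the estimate of the spread, and when only the 12 treated libraries were fitted, 1 of the 39 was still called, that in Fcgr1. With lists as deposited the split was 78 higher and 15 lower in KO. It was 42 and 38 without replicate 2 of KO at 6 h and 16 and 60 without replicate 2 of WT at 6 h, so the share of calls in each direction rests on these libraries. The calls named below are from the fit of all 16 libraries, and of those over the 3 treated times only the one in Fcgr1 was kept in the fit of treated libraries. That member passed the filter only through treated WT libraries.

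The members lower in KO with the largest changes are described first. Fcgr1, the high-affinity IgG receptor, ranked 4254 and 4562 in WT after 2 h, 262 and 475 after 4 h, and 860 and 423 after 6 h. In KO it had no summit at 2 h, was outside the best 8394 in both libraries at 4 h, and stood at 6726 and outside at 6 h, so the genotypes did not overlap at any time (change -3.05 ± 0.26, limma adjusted p = 0.000674). No untreated library and only 1 treated KO library had it among the best 8394. Fcgr1 thus entered the fit only through the WT libraries, where it is high, and its call is a description. Fcgr3, the low-affinity IgG receptor, ranked 551 and 385 in WT and 2507 and 3189 in KO at 2 h, 936 and 875 against 7787 and 5210 at 4 h, and 1380 and 784 against 3085 and 6835 at 6 h (-2.53 ± 0.30, adjusted p = 0.00446). Ctsa, the lysosomal protective protein cathepsin A, ranked 195 to 499 in untreated libraries. After R837 it ranked 383 to 4446 in WT, and in KO its best rank was 6095, with 1 library lacking a summit (-2.77 ± 0.40, adjusted p = 0.0135). Oas3, an interferon-induced antiviral enzyme, ranked 996 and 1541 in WT and had no summit in KO at 2 h, stood at 180 and 254 against 2404 and 1282 at 4 h, and overlapped at 6 h (-2.16 ± 0.34, adjusted p = 0.0185). Adam8, a membrane protease of leukocytes, ranked 105 to 728 in treated WT and 419 to 3664 in treated KO (-2.41 ± 0.39, adjusted p = 0.0185). Zc3h12d, an RNase related to regnase-1, and Cyth4, an ARF exchange factor, were also lower.

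Lpl, lipoprotein lipase, carried 6 members, of which 3 were called lower in KO over the treated times. Of these 3, the one at chr8:68895985-68898575 was among the best 8394 summits only in the WT libraries at 4 and 6 h, so it entered the fit only through the group where it is high, and its call is a description. The first (chr8:68880627-68883926) ranked 1410 and 4277 in WT after 2 h, 897 and 1008 after 4 h, and 405 and 223 after 6 h. In KO it was outside the best 8394 or at 3548 at 2 h, at 8349 or outside at 4 h, and outside or at 4846 at 6 h (-2.90 ± 0.49, adjusted p = 0.0185). The 5 members further along the gene were mostly absent from both genotypes at 2 h, with no summit in either KO library or in replicate 2 of WT, and 4 of them had one in replicate 1 of WT. At 6 h both WT libraries had each of these 5 among their best 8394, at ranks from 667 to 8148, and neither KO library had any of them there. At 6 h the changes of the 6 members ran from -0.32 to -4.41, and 3 were called, that of the first losing its call without replicate 2 of WT or replicate 1 of KO at 6 h. These neighbouring members lie in 1 gene and are not independent.

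Fewer members were called higher in KO. Esd, which encodes esterase D, ranked 278 and 507 in KO and 3240 and 1138 in WT at 2 h. It ranked 285 and 152 against 1364 and 1077 at 4 h, and 136 and 71 against 560 and 1332 at 6 h (2.68 ± 0.43, adjusted p = 0.0185). Its midpoint lay 1.01 kb from the gene's 5′ end and 861 bp from the nearest annotated start. Plaur, the urokinase receptor, ranked 391 and 596 in KO at 6 h, where 1 WT library was outside the best 8394 and the other had no summit, and the genotypes overlapped at 4 h (1.93 ± 0.37, adjusted p = 0.027). Sqstm1, the autophagy receptor p62, ranked 251 and 153 in KO at 2 h and had no WT summit there. At 4 h the WT libraries had it at 7278 and 4781 and the KO libraries had no summit, so its direction differed between times (1.77 ± 0.23 over all times, adjusted p = 0.00812). Ybx1, Tma16, Kdm6b, Rab20 and Acsl1 were called as well, with changes from 0.92 to 1.65.

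**Figure D5:**
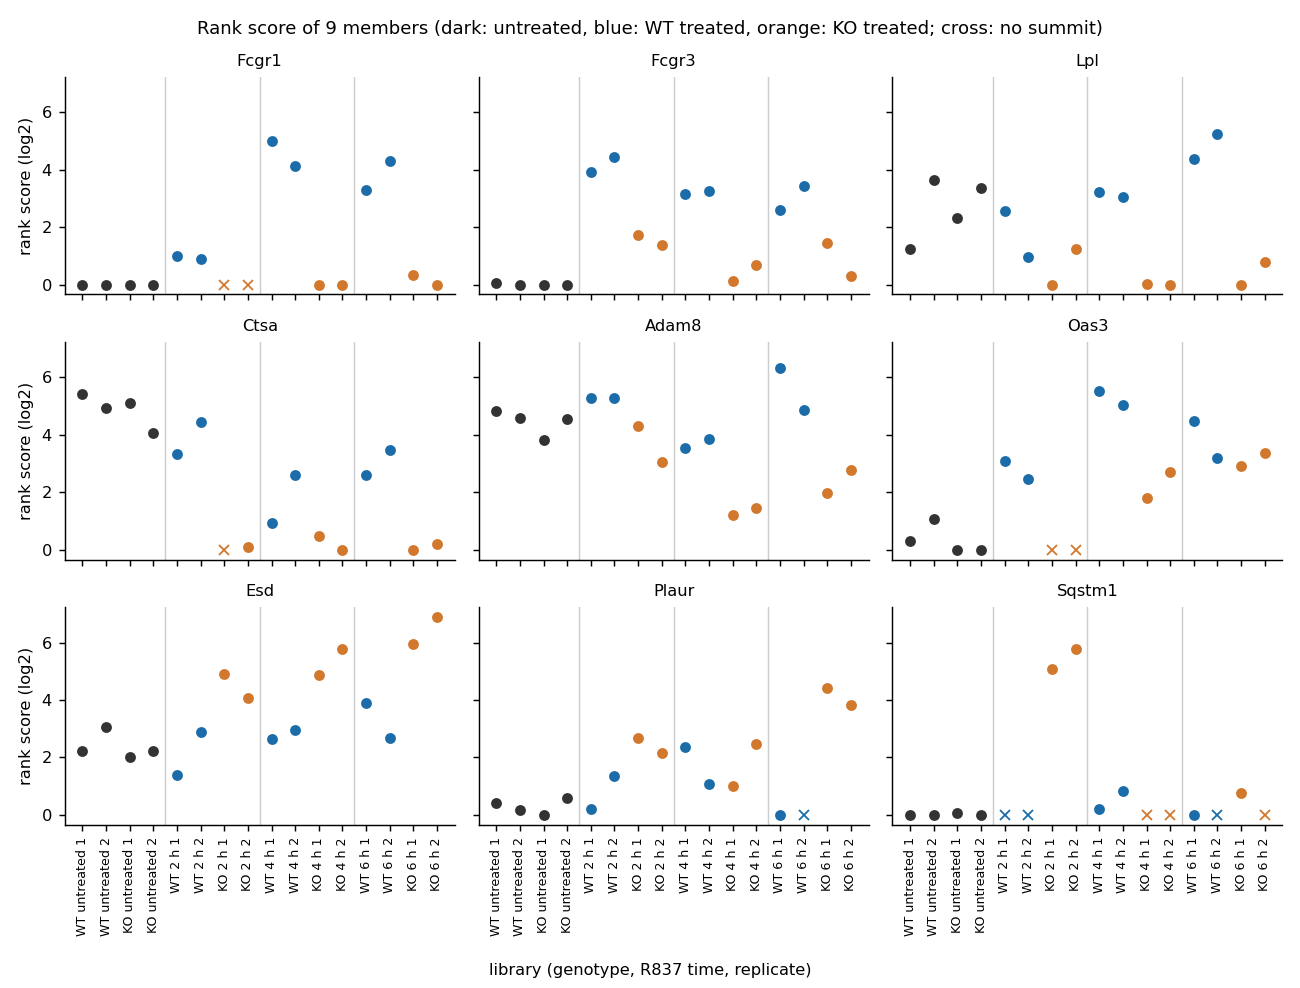
Rank score (vertical axis, log2, 0 where no summit is among the best 8394) of 9 called members in each library (horizontal axis), with untreated libraries dark, WT treated blue, KO treated orange and a cross where the list has no summit. Fcgr1, Fcgr3, Lpl and Ctsa lie higher in WT at each treated time except for overlap in Lpl at 2 h, and Esd lies higher in KO.

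At single times, 24 members were called at 2 h (5 higher and 19 lower in KO), against 1.26% of all regions, of which 0.419% higher and 0.837% lower. At 4 h 20 were called (4 and 16), against 1.64% of all regions (0.92% and 0.723%), and at 6 h 57 (25 and 32), against 1.94% (0.951% and 0.989%). With lists as deposited most calls went the other way, with 21 higher and 6 lower in KO at 4 h and 132 higher and 18 lower at 6 h, where KO lists were longer. Both libraries that stood apart enter the comparison at 6 h, and its split turned with them. Without replicate 2 of KO at 6 h, whose scores stood apart, 45 members were higher and 23 lower in KO at 6 h, and without replicate 2 of WT at 6 h, the shortest list, 16 were higher and 69 lower. In the fit of treated libraries alone these became 8, 20 and 30, of which 8, 12 and 22 were the same members. At 2 h Mcl1 ranked 59 and 248 in KO and had no WT summit, although it ranked 29 to 92 in all untreated libraries (6.12 ± 0.90, adjusted p = 0.0059). Ehd1, an endosomal recycling gene, ranked 145 and 106 in KO and had no WT summit at 2 h (6.08 ± 1.09, adjusted p = 0.0201). Its call was lost by presence or absence, with lists as deposited, with treated libraries alone or with any of 8 libraries left out. A pair of neighbouring members of Zeb2 went opposite ways at 2 h. The first, at chr2:45092533-45099359, ranked 1156 and 379 in KO and was absent in WT. The second, at chr2:45100553-45101156, ranked 491 and 398 in WT and was absent in KO. The call of the first was lost by presence or absence, with lists as deposited and with treated libraries alone. It was also lost without replicate 2 of WT or of KO at 2 h, and the second kept its call in all of these. Picalm, a clathrin assembly gene, had 3 members called lower in KO at 2 h. The call of the one at chr7:90143268-90148813 was lost by presence or absence, with lists as deposited and with treated libraries alone. That of the one at chr7:90166525-90171915 was lost in these settings too, and also with no filter or with any of 11 libraries left out.

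At 4 h Hmox1, heme oxygenase 1, ranked 1558 and 2677 in WT and had no summit in KO or at any other treated time. No other library had it among its best 8394, so it entered the fit only through the group where it is high, and its values are a description. Maf, a macrophage transcription factor, ranked 1099 and 1771 in WT at 4 h and was outside the best 8394 in KO (-2.59 ± 0.37, adjusted p = 0.00416). At 6 h it stood at 1363 and 1150 in WT against 3179 and 3641 in KO. The Maf call at 4 h was lost by presence or absence and with lists as deposited. At 6 h Nlrp3, the inflammasome sensor, ranked 104 and 303 in KO and 2729 and 1537 in WT at an internal start, after ranks of 66 to 295 in both genotypes at 2 and 4 h (3.53 ± 0.70, adjusted p = 0.0255). Its call was lost by presence or absence, with treated libraries alone or without replicate 1 of WT at 6 h. Pkm, pyruvate kinase, ranked 1011 and 731 in WT at 6 h with no KO summit, although all 4 libraries had it at 4 h, between 3108 and 4367 (-3.29 ± 0.34, adjusted p = 0.000747). Smarcc2, a subunit of SWI/SNF chromatin remodellers, stood at 853 and 271 in WT and at 5952 or absent in KO (-3.88 ± 0.63, adjusted p = 0.00829), a call lost by presence or absence.

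By presence alone, 1 of the 4006 members with any treated summit was in all 6 treated KO lists and in no treated WT list, against 0.0585% of all such regions, and none was in all WT and no KO lists, against 0.00509%. It lay in Zmiz1 (chr14:25504592-25506377), was named after its values were seen, and its rank score did not differ by limma (0.15 ± 0.11, adjusted p = 0.598).

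Between 6 and 2 h of R837, 132 members stood higher and 132 lower over both genotypes, against 9.0% of all regions in either direction (3.78% higher and 5.22% lower). Between 4 and 2 h 124 were higher and 114 lower, against 9.05% (4.65% and 4.4%). With lists as deposited the splits were 367 and 69, and 595 and 53, with longer lists at the later times. Without replicate 2 of WT at 6 h, 199 were higher and 119 lower at 6 h, and without replicate 2 of KO at 6 h 169 and 117. Both comparisons share the 2 h libraries, and the times cannot be told apart from the series of codes. Of members higher at 6 h, Stab1, a scavenger receptor, ranked 4836 to 8162 at 2 h in 3 libraries and outside the best 8394 in the fourth, and 493 to 739 at 6 h (3.52 ± 0.43, adjusted p = 0.00109). Dok3, an adaptor that restrains immune signalling, went from ranks of 3796 or worse to between 284 and 817 (3.46 ± 0.46, adjusted p = 0.0014). Tgfb1, the cytokine TGF-beta 1, went from 3739 or worse to between 260 and 1204 (3.35 ± 0.63, adjusted p = 0.0071), and Rtp4, an interferon-induced gene, from 1255 to 4706 to between 175 and 403 (3.24 ± 0.50, adjusted p = 0.00267). None of these overlapped between the times.

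Of members lower at 6 h than at 2 h, 4 are described. H2-K1, a class I MHC heavy chain with close paralogs, ranked 32 to 106 at 2 h, 133 to 356 at 4 h and 936 to 7772 at 6 h (-5.05 ± 0.58 for 6 against 2 h, adjusted p = 0.000837). Slc11a2, the iron transporter DMT1, ranked 173 to 474 at 2 h, and at 6 h only 1 library had it among the best 8394, at 3072 (-4.49 ± 0.43, adjusted p = 0.000309). Pdgfb, a platelet-derived growth factor, ranked 243 to 444 at 2 h, 3427 to 6632 at 4 h and 2728 or worse at 6 h (-3.83 ± 0.41, adjusted p = 0.000648). Rnf19b, a ubiquitin ligase, ranked 405 to 1760 at 2 h and was outside the best 8394 or absent in all 4 libraries at 6 h (-3.38 ± 0.36, adjusted p = 0.000568). At 4 h Il15, a lymphocyte cytokine, was lower than at 2 h (-3.25 ± 0.30, adjusted p = 0.000353), and Ifi207, an interferon-inducible gene, was higher (3.92 ± 0.63, adjusted p = 0.00358).

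By list, 4 of 14 tested members of NF-kB response genes were lower and 0 higher at 6 h than at 2 h, in Nfkb1, Marcks, Nfkbiz and Ehd1, with a median change of -1.25. Over all regions the median was 0.0, with 3.78% called higher and 5.22% lower. Interferon-stimulated genes had 3 of 11 higher and 0 lower with a median of 0.92, all 3 in Rnf213. Glycolysis genes had 2 of 15 higher, in Ldha, lactate dehydrogenase, and Pkm, and 0 lower, with a median of 0.89. Translation genes had 2 of 11 lower, in Eif4g2 and Eef2, and 0 higher, with a median of -0.47. Macrophage identity genes had 4 of 37 higher, in Siglec1, Fcgr1, Itgam and Maf, and 0 lower. Of 20 tested members in genes of TLR signalling, the IkB kinases and caspase-8, 2 were higher, in Casp8 and Tank, and 2 lower, in Cflar and Tab2. Of 59 in actin and adhesion genes, 3 were higher, in Tln1, Wdr1 and Msn, and 1 lower, in Plec. Lysosomal genes had 1 of 37 higher, in Lgmn, immediate early genes had 1 of 11 lower, in Klf6, and lipid-handling, sterol and chromatin genes had 0 calls by limma.

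The KO minus WT difference at 6 h was compared with that at 2 h, and 19 members were called, 8 with a larger and 11 with a smaller value at 6 h, against 1.12% of all regions (0.596% larger and 0.526% smaller). Without replicate 2 of KO at 6 h there were 26 and 17, and without replicate 2 of WT at 6 h 8 and 40. In the fit of treated libraries alone 0 were called by limma, with 196 of 2534 members at an unadjusted p under 0.05 and a smallest adjusted p of 0.12. The 5′ end of the host gene was examined beside each placed member. In untreated libraries, 56.7% to 59.2% of placed members had a summit at their host's 5′ end in the same list, and in treated libraries 19.8% to 54.6% did. Among members held in a treated list, 38.0% to 52.5% had such a summit, and among those not held 14.3% to 57.4% did. Many members were thus held in a list without a summit at their host's 5′ end. Members were counted here and not hosts, and members at internal starts were included.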

How the data were processed

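RNA polymerase II was measured by chromatin immunoprecipitation and sequencing (75 nt single-end reads, per the labels' protocols) in 16 libraries, and an input sample was not used here. Reads were processed with GSNAP and MACS2 on GRCm38, per the submitters' processing notes, with versions not given in the sources used here. The deposited score of each summit is the −log10 of either p or q (p-value, q-value) made by the authors, which of them is not stated, and it served only to rank summits within a list. Lists were made per library, per the labels, and their depth is unknown.

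Summits were chained into regions and placed by RefSeq GRCm38.p6 genes. Shares were tested by exact permutation. The fit of rank scores used limma 3.58.1 (R 4.3.3), with 8 group means with a variance trend, and adjusted by Benjamini-Hochberg. Only the fit of rank scores was tried on simulated lists, and its outcome is not given here. Python 3.11.15 was used otherwise. Named members are the 12 highest untreated, the 5 hosts with most members, up to 8 calls per direction and comparison, the 8 highest held in all 12 or in none of the treated lists, up to 2 per gene list, those at the rule's limits and those of N4bp1. From these, examples are described. The members and lists were chosen with earlier results of these data known. Alternatives changed chaining, list length, filter, fit and libraries.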

Additional observations from a re-analysis of the deposited data

Results flagged for a closer look

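The KO minus WT difference in rank score changed between 2 and 6 h in 19 members by the test of the difference itself (limma, all 16 libraries), against 1.12% of all regions, and in 0 when treated libraries alone were fitted. Values are given for the 8 with a larger value at 6 h and for the 8 with the largest decrease of the other 11. Each is the difference at 6 h minus that at 2 h. It was above 0 in Ptpn1 at 1.05, Aldh3b1 at 1.0, Gnai2 at 0.91, Clic4 at 0.88, Csf2rb2 at 0.7, Csrnp1 at 0.69, Ahnak at 0.65 and Eif5 at 0.64. It was below 0 in Mcl1 at -8.06, Zeb2 at -5.11, Sqstm1 at -5.04, Rnf213 at -3.37, Pkm at -3.29, Tnfaip2 at -2.7, Map3k11 at -1.63 and Itsn1 at -1.32. Gnai2 was among the best 8394 summits only in the KO libraries at 6 h, and Clic4 and Eif5 only in the WT libraries at 2 h. Ptpn1 and Csrnp1 were there in the KO libraries at 6 h, and elsewhere in a single library, at 7132 and 7531. Csf2rb2 was there in the WT libraries at 2 h, and elsewhere in a single library, at 7758. All of these entered the fit only through a group that makes the difference, and their values are a description. Mcl1 had no WT summit at 2 h and ranked 279 and 1128 in WT against 1733 and 2678 in KO at 6 h.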

How the results depend on the processing

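The KO minus WT difference in share was 0.455 points with lists shortened to the shortest, 8.74 with chaining at up to 250 bp and 10.8 with a summit in 4 of 4 untreated libraries, and 6.29 to 13.8 with 1 library left out. Its unadjusted p, 0.0463 with all libraries, was above 0.05 in the first 3 and with 9 of the 12 libraries left out in turn. Members minus gene-end regions was -3.72 points over 5 bins of untreated rank, -9.39 with chaining at up to 1000 bp, and -16.7 to -14.3 with 1 library left out. The 6 h minus 2 h share was 4.45 with lists shortened to the shortest and 11.9 to 23.1 with 1 library left out.

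Members called for KO against WT over the treated times numbered 110 by presence or absence, 93 with lists as deposited, 24 with a summit in at least 4 of 16 lists, 1 with treated libraries only, 63 with no variance trend, 9 with chaining at up to 250 bp, and 43 to 122 with 1 library left out. At 2 h there were 4 with lists as deposited, 12 with at least 4 of 16 lists, 8 with treated libraries only, 7 with chaining at up to 1000 bp, and 21 to 65 with 1 left out. At 4 h there were 27 with lists as deposited, 39 by presence or absence, 32 with no variance trend, 13 at 250 bp, and 20 to 57. At 6 h there were 150 as deposited, 30 with treated libraries only, 36 at 1000 bp, and 50 to 173, the highest without replicate 1 of KO at 6 h. For 6 h against 2 h there were 436 as deposited, 174 at 250 bp, and 222 to 327. For 4 h against 2 h there were 648 as deposited, 132 with treated libraries only, 142 at 250 bp, and 190 to 274. For the difference at 6 h against 2 h there were 79 by presence or absence, 7 as deposited, 7 with at least 4 of 16 lists, 0 with treated libraries only, 6 at 1000 bp, and 22 to 102. A group left with 1 library was assumed to vary like the others. The cause of these moves was not tested.

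With the replicate number as a block, 23 members were called over the treated times. Deviations of same-numbered libraries correlated between -0.117 and 0.176 over 28 pairs of groups. These values cannot tell whether same-numbered libraries shared a culture or mouse, which the labels do not give. For named members, 2146 of 2499 alternative values kept direction and call and 353 kept direction only or went to 0. Depth is unknown and limits all of these counts.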
